A study of Mus musculus with 4 samples.

Results

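Interferon-stimulated genes are switched on by type I and type III interferons and, in part, by interferon gamma. *Ifit1*, *Ifit2*, *Ifit3*, *Isg15*, *Irf7*, *Oasl2*, *Bst2*, *Ifi44* and *Rsad2* were followed here in limb connective tissue cells, and all 9 were found among the 23284 gene symbols in the files. They were taken from a list of names of known interferon targets, with no threshold on a value. RNA was sequenced from 2 *Osr1* GCE/+ and 2 *Osr1* GCE/GCE mouse embryos at E13.5 on the C57BL/6J background. GCE is a knock-in of eGFP-IRES-CreERt2 at *Osr1*, the gene of a transcription factor of limb connective tissue, so each embryo carries at least 1 such allele and wild-type cells are not among the groups. Live GFP-positive cells were sorted from collagenase-digested limbs, with no surface marker named for the removal of blood cells in the description of this sort, and a cell therefore entered a library through GFP in both genotypes.

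Interferons bind receptors on the cell surface, the receptors act through the kinases JAK1, JAK2 and TYK2, and a transcription factor complex with IRF9 then binds the interferon-stimulated response element in promoters. Cells make the ligands after sensors detect foreign or misplaced nucleic acid. Many cells keep low levels of the target genes without an infection, and macrophages among others carry several of the sensors.

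The counts of a sample summed to between 52121596 and 61402140, and 3 counts were worth 0.049 to 0.0574 CPM, where CPM is the count scaled to a common library size. The library sizes were adjusted by TMM factors of 0.9936 to 1.006. In the check of the targeted gene, *Osr1* was at 81.9 and 79.1 CPM in GCE/+ and at 11.9 and 13.9 CPM in GCE/GCE. The mesenchymal genes *Pdgfra*, *Prrx1*, *Col1a1* and *Vim* were abundant in every library. GCE/GCE replicate 1 stood apart from the other 3 libraries by its *Xist* level of 1140 CPM against at most 2.63 CPM, and by Y-linked genes at or near 0, as with 0.172 CPM of *Ddx3y* against 182 to 214 CPM. None of the 9 genes lies on a sex chromosome.

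The binding element of the IRF9 complex gives the common feature by which several of the 9 promoters can be recognised. Promoter windows of RefSeq on GRCm38.p6, with 250 bases before and 50 after the start site, were searched on both strands for GAAANNGAAA, which reads TTTCNNTTTC on the other strand. At least 1 match was held by 5 of the 9 genes (55.6%), against 1079 of 27025 genes with such a window (3.99%) and 30 of 63 other interferon-stimulated genes (47.6%). The stretches with the matches are shown, and for *Ifit2* a stretch without a match from a similar distance to the start site. Each sequence reads 5′ to 3′ on the strand of its gene, ends upstream of the start site and has the matched bases in capitals, where overlapping matches form 1 run.
Isg15, chr4:156200845-156200926, minus strand: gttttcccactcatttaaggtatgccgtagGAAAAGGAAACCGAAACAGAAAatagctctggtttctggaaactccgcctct
Bst2, chr8:71537557-71537632, minus strand: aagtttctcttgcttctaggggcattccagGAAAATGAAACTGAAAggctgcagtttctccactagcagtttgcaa
Rsad2, chr12:26456533-26456602, minus strand: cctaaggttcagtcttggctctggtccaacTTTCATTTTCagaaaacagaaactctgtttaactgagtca
Ifit3, chr19:34583343-34583446, plus strand: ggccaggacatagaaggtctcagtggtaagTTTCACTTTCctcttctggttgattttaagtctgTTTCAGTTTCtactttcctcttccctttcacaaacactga
Ifit1, chr19:34640755-34640843, plus strand: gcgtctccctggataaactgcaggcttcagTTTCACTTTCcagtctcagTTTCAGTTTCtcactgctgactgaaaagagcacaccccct
Ifit2, chr19:34550534-34550643, plus strand: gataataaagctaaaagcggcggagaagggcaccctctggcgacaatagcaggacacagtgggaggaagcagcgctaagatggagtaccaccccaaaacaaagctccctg

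*Isg15* had 3 overlapping matches, which began 78, 72 and 66 bases before the start site. *Bst2* had 2 overlapping matches, at 130 and 124 bases, and *Rsad2* had 1, at 120 bases. In *Ifit3* the 2 matches stood apart, at 156 and 122 bases, and in *Ifit1* they began at 104 and 85 bases. No match lay in the windows of *Ifi44*, *Irf7*, *Oasl2* or *Ifit2*, the last with 2 windows, which says only that these letters are not in these 300 bases. TTCNNNGAA, the letters of a gamma-activated site, was in a window of *Bst2* and of *Ifit2*, so in 2 of 9 genes (22.2%) against 9.55% of all genes with a window. *Bst2* and *Ifit2*, the genes with the highest levels per kilobase, thus differed in the first motif, with 2 matches in *Bst2* and none in *Ifit2*.

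Most of the 9 genes were expressed at low levels. Their mean over the 4 embryos lay between 0.249 and 18.4 CPM. Means under 1 CPM were found for 4 of them and means from 1 to 2 CPM for another 3. Together they took 0.00258% to 0.00359% of the counts of a library. To compare levels between genes, CPM were divided by the annotated exon length in kilobases. On that scale *Bst2* stood first with a mean of 6.82 CPM per kb and rank 7564 of 15447 genes, and *Ifit2* second with 4.82 and rank 8645. *Irf7*, *Isg15*, *Ifi44*, *Rsad2*, *Ifit3* and *Oasl2* followed with 0.652, 0.607, 0.562, 0.46, 0.286 and 0.279 CPM per kb. *Ifit1* came last with 0.0939 CPM per kb and rank 14906. Between neighbours in this order, the ranges over the embryos were separate at 2 steps only, from *Ifit2* to *Irf7* and from *Oasl2* to *Ifit1*.

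**Figure D1:**
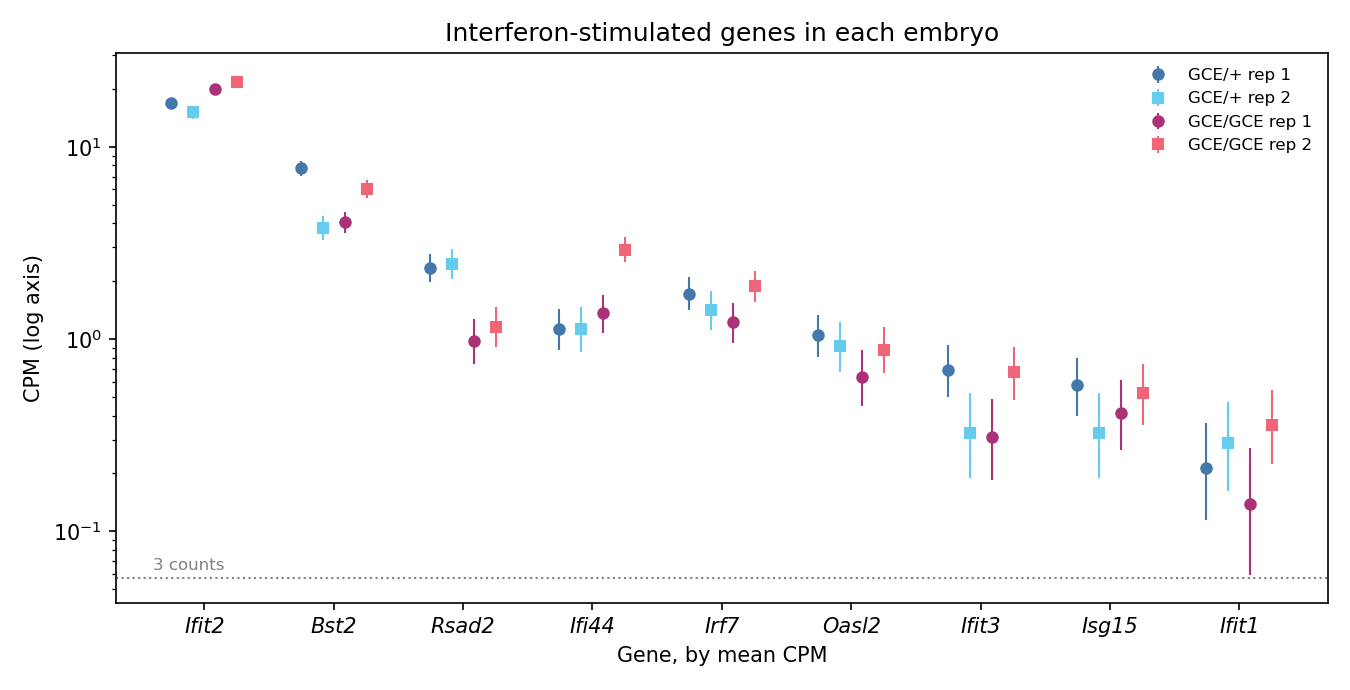
CPM of each gene (logarithmic axis) in the 4 embryos, GCE/+ in blue and GCE/GCE in red, with exact 95% binomial intervals that cover counting error only. The dotted line marks 3 counts in the smallest library (0.0574 CPM), *Rsad2* is lower in both GCE/GCE embryos (0.982 and 1.16 CPM) than in both GCE/+ embryos (2.35 and 2.47 CPM), and 5 of the 9 genes overlap between the genotypes.

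The 2 genotypes were compared to see whether these genes change when *Osr1* is lost. Of the 9 genes, 1 passed the test, *Rsad2*, which was lower in GCE/GCE cells. No gene of the 9 was called higher by edgeR or DESeq2, while 2 were higher and 1 was lower at an unadjusted edgeR p under 0.05. At that unadjusted p, 867 of the 15645 genes tested were higher and 769 were lower. Among all genes tested, 1.78% were called in either direction and 0.895% were called lower (edgeR's quasi-likelihood test, Benjamini-Hochberg adjusted p under 0.1). The median log2 fold change of the 9 genes was -0.02, beside 0.00 over all genes tested, and 7 of the 9 lay within 0.5 of 0. Both GCE/GCE values lay outside both GCE/+ values in 4 of the 9 genes, 2 below and 2 above, against 38.4% of all genes tested, 19.1% below and 19.2% above. That share of separate groups is near the background. The smallest p of an exact permutation test with 2 embryos a group is 0.333, and the calls rest on a spread estimated across genes (biological coefficient of variation 0.1068).

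*Rsad2* encodes viperin, an enzyme of the radical SAM family that makes a chain-terminating nucleotide against viruses. It was at 2.35 and 2.47 CPM in GCE/+ cells and at 0.982 and 1.16 CPM in GCE/GCE cells, which were 143, 129, 57 and 71 fragments. Both GCE/GCE embryos were below both GCE/+ embryos, and the counting intervals of the genotypes did not touch, with 1.46 CPM as the highest bound in GCE/GCE and 1.98 CPM as the lowest in GCE/+. The log2 fold change was -1.17 (SE 0.23, n = 2 and 2), or 44.6% of the GCE/+ level, with a 95% interval from -1.69 to -0.64 and an edgeR Benjamini-Hochberg adjusted p of 0.0704. DESeq2, which called 3.45% of its 14707 genes, gave an adjusted p of 0.0431. Without GCE/+ replicate 1 the log2 fold change was -1.21 and the edgeR adjusted p 0.148, so the call was lost while the size was kept. Without GCE/GCE replicate 1, the library with the high *Xist* level, the values were -1.06 and 0.0753.

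*Rsad2* lies at chr12:26442746-26456452 on the minus strand of GRCm38, 16.9 Mb from *Osr1*. Within 20 Mb of *Osr1*, 90 genes were tested, *Rsad2* was the 1 gene called apart from *Osr1* itself (1.11%), and the median log2 fold change was 0.02. This window was examined after the values were seen. *Cmpk2*, a mitochondrial nucleotide kinase gene that is induced together with *Rsad2* in the interferon response, is 12.8 kb away. It was at 4.55 and 4.19 CPM in GCE/+ and 3.65 and 4.49 CPM in GCE/GCE cells, with overlapping groups and a log2 fold change of -0.10 (SE 0.18, edgeR adjusted p 0.948). *Cmpk2* was also named after its values were seen.

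The genes of the IFIT family encode proteins of tetratricopeptide repeats that bind foreign RNA and block its translation. *Ifit2*, *Ifit3* and *Ifit1* lie in this order on the plus strand of chromosome 19, within 99.3 kb, at chr19:34550694-34576419, chr19:34583531-34588731 and chr19:34640871-34650009. *Ifit2* was at 16.8 and 15.1 CPM in GCE/+ and at 20.1 and 21.6 CPM in GCE/GCE cells. Both GCE/GCE embryos were above both GCE/+ embryos. The log2 fold change was 0.39 (SE 0.11, 95% interval 0.13 to 0.64), and it did not pass after adjustment (edgeR p 0.00834, adjusted p 0.207; DESeq2 adjusted p 0.177).

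Its neighbours were far lower per kilobase. *Ifit3* was at 0.69 and 0.325 CPM in GCE/+ and at 0.31 and 0.67 CPM in GCE/GCE cells, so that 1 embryo of each genotype was high and 1 low, and the log2 fold change was -0.06 (95% interval -1.16 to 1.04). *Ifit1* had 13, 15, 8 and 22 fragments in the 4 libraries, or 0.213 and 0.287 CPM in GCE/+ and 0.138 and 0.359 CPM in GCE/GCE cells, where the GCE/GCE values enclosed the others. The log2 fold change of *Ifit1* was 0.01 with an interval from -1.17 to 1.19, and changes of up to 1 on the log2 scale in either direction lay within the intervals of both genes. Per kilobase, *Ifit2* had 16.8 times the mean level of *Ifit3* and 51.3 times that of *Ifit1*. The 3 genes belong to 1 family, and how alike their sequences are was not examined. Reads that fit more than 1 gene could have been dropped in the counting, which makes the levels of these genes uncertain.

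*Ifi44* encodes a cytoplasmic protein with a GTP-binding motif. It was at 1.13 CPM in both GCE/+ embryos and at 1.36 and 2.92 CPM in GCE/GCE replicates 1 and 2. The groups did not overlap, and the GCE/GCE embryos differed from each other beyond counting error, with intervals from 1.08 to 1.7 and from 2.51 to 3.39 CPM. The log2 fold change was 0.92 (SE 0.36, 95% interval 0.11 to 1.74, edgeR p 0.031, adjusted p 0.383; DESeq2 adjusted p 0.442). The value rested on 1 library. Without GCE/GCE replicate 2 it was 0.27 (edgeR adjusted p 1), and without GCE/GCE replicate 1 it was 1.36 and was called (edgeR adjusted p 0.00258).

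*Bst2* encodes tetherin, a membrane protein that holds budding virus particles on the cell. It was at 7.74 and 3.79 CPM in GCE/+ and at 4.05 and 6.03 CPM in GCE/GCE cells, or 471, 198, 235 and 369 fragments. The embryos of 1 genotype differed by more than the genotypes did: replicate 1 held 2.04 times the level of replicate 2 in GCE/+, and the counting intervals were separate in both genotypes. The log2 fold change was -0.20 (SE 0.32, 95% interval -0.94 to 0.54, edgeR adjusted p 0.943). Its direction changed without GCE/+ replicate 1, to 0.41, and without GCE/GCE replicate 1, to 0.05.

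*Irf7* encodes the transcription factor that amplifies the expression of type I interferon genes. It was at 1.72 and 1.42 CPM in GCE/+ and at 1.22 and 1.88 CPM in GCE/GCE cells, where the GCE/GCE values enclosed both GCE/+ values. Its log2 fold change was -0.02 (SE 0.28, 95% interval -0.65 to 0.62). *Isg15* encodes a ubiquitin-like protein that is attached to other proteins during the interferon response. It was at 0.575 and 0.325 CPM in GCE/+ and at 0.413 and 0.523 CPM in GCE/GCE cells, here with the GCE/+ values enclosing the others, and the log2 fold change was 0.04 (SE 0.38, 95% interval -0.83 to 0.92). *Oasl2*, of the family of oligoadenylate synthetase-like genes, was at 1.05 and 0.918 CPM in GCE/+ and at 0.637 and 0.882 CPM in GCE/GCE cells. Both GCE/GCE embryos were lower, but the log2 fold change of -0.37 (SE 0.29, 95% interval -1.04 to 0.29) did not pass (edgeR adjusted p 0.802).

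**Figure D2:**
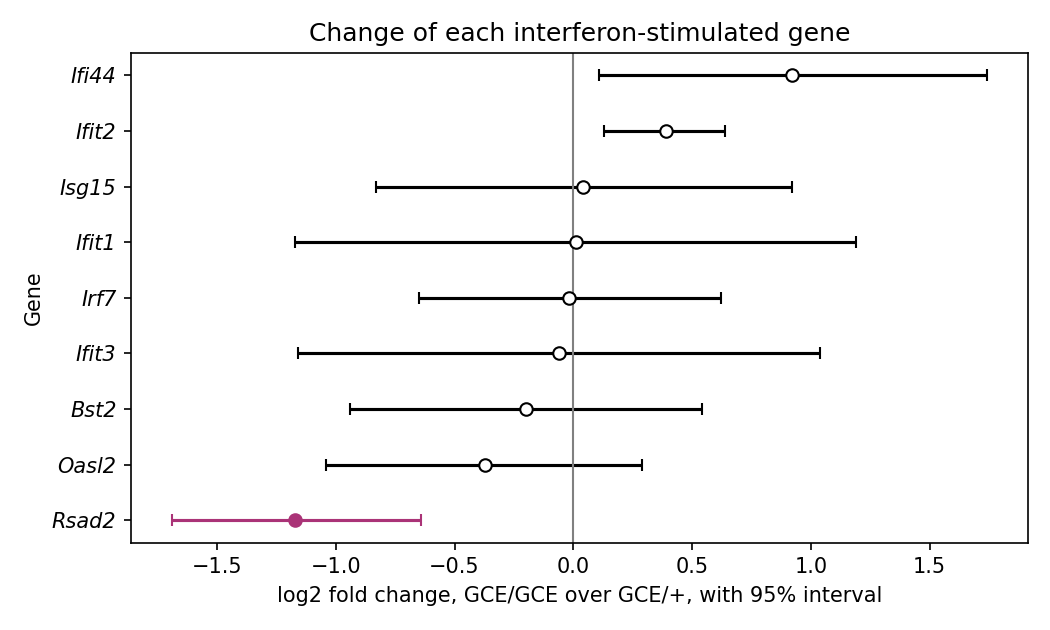
Log2 fold change of GCE/GCE over GCE/+ for each of the 9 genes (horizontal axis) with its 95% interval from edgeR. The filled point is *Rsad2*, the gene called at an adjusted p under 0.1 (-1.17); the intervals of *Ifit2* (0.13 to 0.64) and *Ifi44* (0.11 to 1.74) also lie off 0 without passing the adjustment, and those of the other 6 genes include 0.

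The embryos of 1 genotype also differed in a shared direction. In GCE/GCE, all 9 genes were higher by over 1% in replicate 2 than in replicate 1. In GCE/+, 6 of the 9 were higher by over 1% in replicate 1 than in replicate 2, *Ifi44* was level, and *Ifit1* and *Rsad2* were lower. The share of all tested genes with these orders was not computed, so the counts stand without a background. GCE/GCE replicate 1 was also the library with the high *Xist* level, and the part of that difference here was not tested. The mean profile, as log2 CPM less the mean of the gene over the embryos, was 0.20 and -0.13 in GCE/+ replicates 1 and 2 and -0.34 and 0.28 in GCE/GCE replicates 1 and 2. The 95% counting intervals of the GCE/GCE embryos were separate in *Irf7*, *Bst2* and *Ifi44*, and those of the GCE/+ embryos in *Bst2*. Leaving out a library therefore moved the median log2 fold change of the 9 genes, from -0.51 without GCE/GCE replicate 2 to 0.41 without GCE/+ replicate 1.

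**Figure D3:**
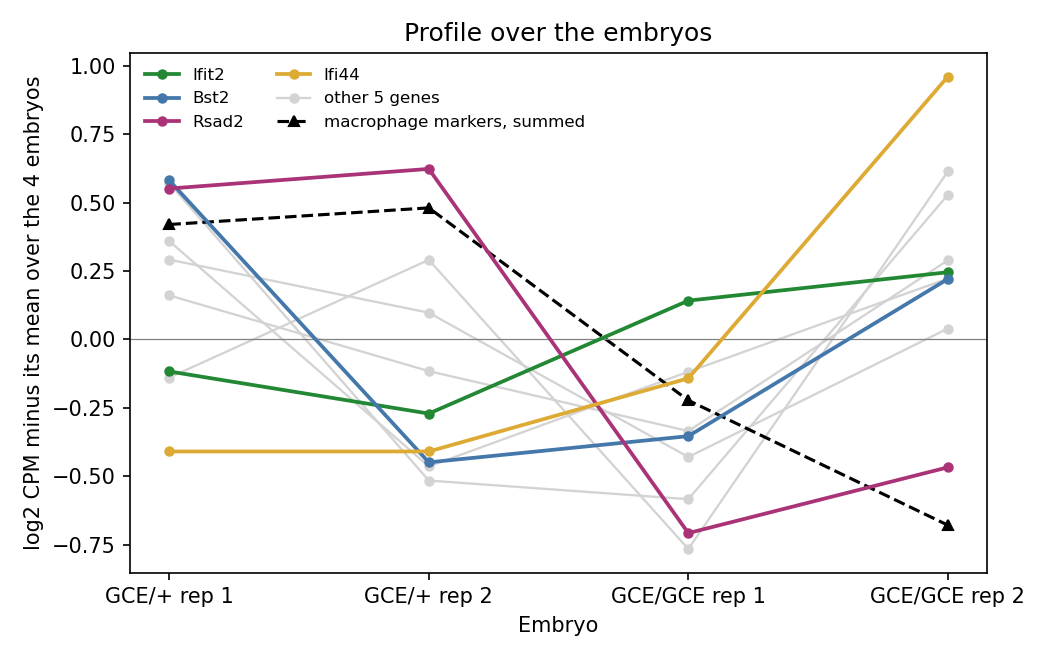
Log2 CPM of each gene less its mean over the 4 embryos (vertical axis), with the summed CPM of 30 macrophage markers on the same scale as a dashed line. *Rsad2* is lower in both GCE/GCE embryos, *Bst2* is high in GCE/+ replicate 1 and GCE/GCE replicate 2, *Ifi44* is high in GCE/GCE replicate 2 alone, and all 9 genes are higher in GCE/GCE replicate 2 than in replicate 1, while the macrophage sum is lower there (304 against 417 CPM).

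Upstream of these genes, transcripts of the ligands were at or near 0. Of 19 interferon genes in the files, none passed the filter on low counts, and 13 had no fragment in any library. The summed counts of the 19 were 11 and 5 in GCE/+ and 10 and 4 in GCE/GCE. No interferon gene had over 5 fragments in a library, beside the floor of 3 counts. The exact 95% binomial interval of a gene with 0 counts had an upper bound of 0.0603 to 0.0705 CPM, by library.

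Transcripts of the receptor and signalling genes were present in all embryos, with log2 fold changes between -0.34 and 0.09. *Ifnar1*, a chain of the type I receptor, was at 137 and 142 CPM in GCE/+ and at 139 and 140 CPM in GCE/GCE cells. None of the 6 receptor genes was called by edgeR or DESeq2 (1 lower at an unadjusted edgeR p under 0.05, median log2 fold change -0.09), with *Il10rb* at -0.34 (SE 0.14), *Ifnar2* at -0.21, *Ifngr2* at -0.14, *Ifngr1* at -0.05 and *Il28ra* at 0.07. None of the 6 signalling genes was called either (0 at an unadjusted edgeR p under 0.05, median 0.02), and all 6 lay between -0.13 and 0.09, from *Irf9* and *Jak1* (-0.11) over *Stat2* (0.02) to *Jak2* (0.06) and *Tyk2*. Of 4 negative regulators, none was called by edgeR or DESeq2 or had an unadjusted edgeR p under 0.05, with *Usp18*, which removes ISG15 from proteins, at 0.17 (SE 0.33), *Pias1* at 0.03, *Socs1* at -0.08 and *Socs3* at -0.12. At an unadjusted edgeR p under 0.05, 769 of the 15645 genes tested were lower and 867 were higher.

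Among the 7 other interferon regulatory factors, 2 were lower and 1 higher at an unadjusted edgeR p under 0.05, where 769 and 867 of the 15645 genes tested were. None was called by edgeR, and the median was -0.17. *Irf5*, a factor that acts in myeloid cells downstream of endosomal receptors, came closest. It was at 6.01 and 6.67 CPM in GCE/+ and at 4.03 and 3.2 CPM in GCE/GCE cells, with a log2 fold change of -0.81 (SE 0.18, edgeR adjusted p 0.101), and DESeq2 called it (adjusted p 0.0243). *Irf4* had -0.98 (SE 0.31, edgeR adjusted p 0.261) and *Irf8* -0.34, and *Irf1* had -0.17, *Irf3* -0.10 and *Irf2* -0.05.

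Of the 18 nucleic acid sensors and adaptors tested, 2 fell and none rose by edgeR, where 0.895% of all genes tested were called lower, and the median was -0.32. At an unadjusted edgeR p under 0.05, 7 were lower and 0 higher, where 769 and 867 of the 15645 genes tested were. The log2 fold changes were negative in 16 and positive in 2, where 49.1% of all genes tested were negative. Both GCE/GCE values lay below both GCE/+ values in 10 and above in 0, against 19.1% and 19.2% of all genes tested. *Unc93b1*, which carries endosomal Toll-like receptors to their compartment, was at 17.1 and 15.2 CPM in GCE/+ and at 10.9 and 8.27 CPM in GCE/GCE cells (log2 fold change -0.76, SE 0.15, edgeR adjusted p 0.0746). *Tlr13*, an X-linked receptor for bacterial RNA, was at 5.5 and 6.5 against 3.29 and 3.5 CPM (-0.82, SE 0.17, edgeR adjusted p 0.0869). The 5 genes of the list with the highest CPM had smaller values, with *Traf3* at 0.06, *Tbk1* at -0.13, *Tmem173*, the gene of STING, at -0.32, *Mavs* at -0.01 and *Myd88* at -0.37, and none of the 5 was called.

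Of 65 other interferon-stimulated genes tested, 1 fell and none rose by edgeR, a count near the background of 1.78% called in either direction. *Slfn2*, of the Schlafen family and needed for the quiescence of immune cells, was at 17.3 and 21.1 CPM in GCE/+ and at 9.08 and 8.45 CPM in GCE/GCE cells (log2 fold change -1.13, SE 0.13, edgeR adjusted p 0.0184). The median was -0.15, with 49 negative and 16 positive values, where 49.1% of all genes tested were negative. Those with the highest CPM were *Ifitm2* at -0.16, *Adar* at 0.14, *Shisa5* at -0.16, *Daxx* at -0.01 and *Eif2ak2* at 0.12, and none of these was called. Low levels were common here too, with a mean under 1 CPM in 31 of the 75 genes of this list in the files. Over all pathway lists, 3 of 106 tested genes were called by edgeR, all lower, against 1.78% of all genes tested in either direction and 0.895% lower. The median was -0.13, with 80 negative and 26 positive values, and DESeq2 called 4, all lower. Without GCE/GCE replicate 1, the library with the high *Xist* level, edgeR called 5 pathway genes lower and the median was -0.16.

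Markers of macrophages moved in the same direction as *Rsad2*, *Slfn2*, *Unc93b1* and *Tlr13*. Of 30 markers tested, 20 fell and none rose by edgeR, where 0.895% of all genes tested were called lower. The log2 fold changes were negative in 29 markers, and the median was -0.93. The 1 positive value was that of *Cd163*, at 0.53 (SE 0.43) with a mean of 0.247 CPM, named after its value was seen. The summed level of the 30 markers was 651 and 679 CPM in GCE/+ and 417 and 304 CPM in GCE/GCE cells, 0.542 times as high on average. None of the 30 was at 0 in a library. *Csf1r*, the receptor that macrophages need to survive, was at 60.7 and 67.2 against 41.4 and 24.1 CPM, *C1qb*, of complement, at 28.5 and 25.6 against 14.2 and 9.79 CPM, and *Emr1*, the gene of F4/80, at 23.4 and 26.5 against 15.3 and 9.49 CPM. In bulk RNA, fewer cells of a type and less RNA per cell cannot be told apart. Between the GCE/GCE embryos the orders differed, since the macrophage sum was lower in replicate 2 and *Rsad2* was not, at 1.16 against 0.982 CPM with overlapping counting intervals. The part of macrophage RNA in the result for *Rsad2* was not tested. Of 8 endothelial markers, edgeR called none, and DESeq2 called 1 lower, *Tie1* (log2 fold change -0.63, adjusted p 0.0813), named after its values were seen. At an unadjusted edgeR p under 0.05, 5 endothelial markers were lower and 0 higher, where 769 and 867 of the 15645 genes tested were. The 8 markers had a median of -0.44 and sums of 128 and 104 against 102 and 86.4 CPM.

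**Figure D4:**
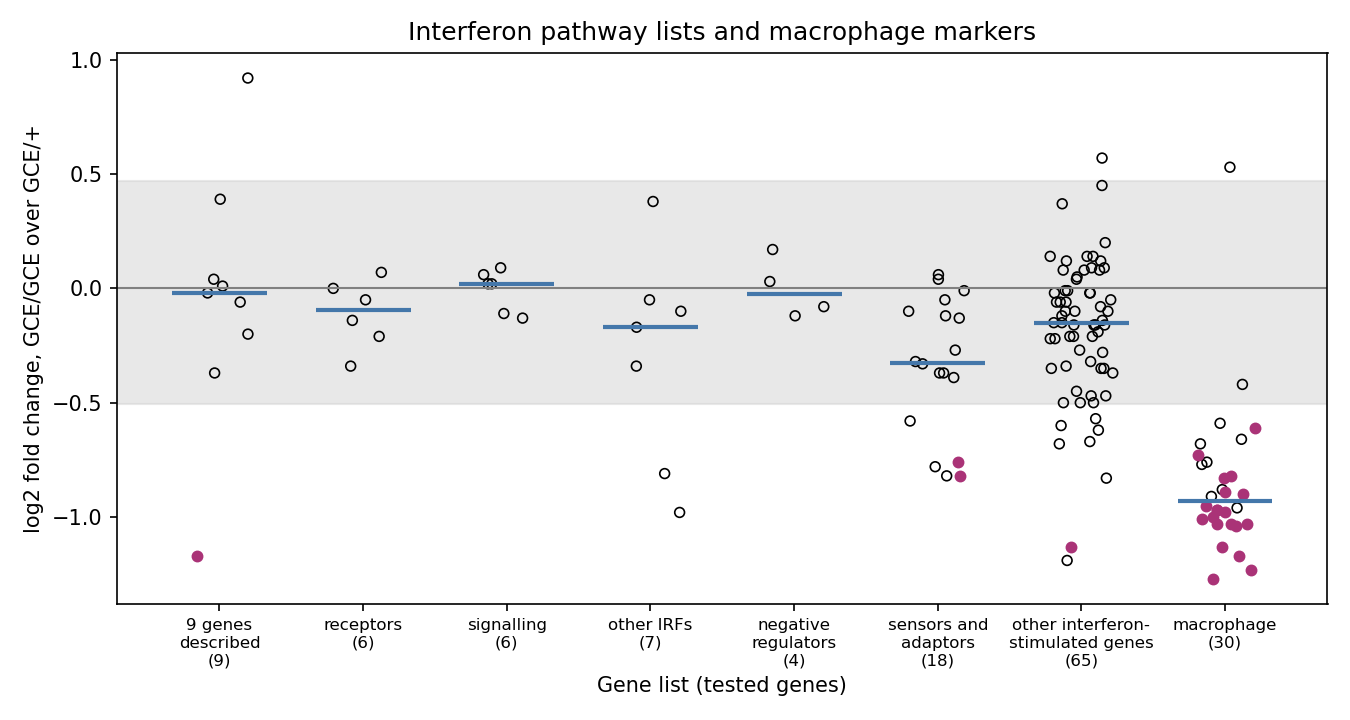
Log2 fold change of GCE/GCE over GCE/+ for every tested gene of each list (open circles; filled where the adjusted p was under 0.1), with the number tested in brackets, the median of a list as a blue bar and the range from the 5th to the 95th percentile of all tested genes in grey. The 9 genes have a median near 0 (-0.02), with *Rsad2* at -1.17 and *Ifi44* at 0.92 the furthest from it. The receptor and signalling genes lie between -0.34 and 0.09, and the macrophage markers lie mostly below the grey band (median -0.93).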

How the data were processed

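The authors mapped 50-bp paired-end reads of TruSeq RNA v2 libraries, a kit that does not mark strand, with TopHat2 to mm9, guided by UCSC gene models, and assigned fragments to genes with HTSeq (intersection-strict). They deposited raw counts of fragments, without normalization, 1 value per gene symbol and library. Groups and replicate numbers were taken from the titles. For the present report, genes were filtered with filterByExpr, which left 15645, scaled by TMM and compared with the two-sided quasi-likelihood test of edgeR 4.0.16 in R 4.3.3, with genotype as the only term and Benjamini-Hochberg adjustment over all genes tested at 0.1, the authors' threshold. The procedure was tested on simulated data. Standard errors come from the F statistic, with 2 residual and 6.339 prior degrees of freedom. DESeq2 1.42.0, the authors' tool, was the first alternative. The others were RLE and upper quartile factors, no filter, at least 10 counts in every library, an adjusted p under 0.05, the replicate number as a block, offsets for transcript length without and with that block, and leaving out each library in turn. Exact binomial intervals and the floor of 3 counts cover counting error only.

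The 9 genes and the lists were chosen with earlier results of these data known. All 9 genes were named, with, from the pathway lists, genes past the threshold, every tested gene of lists of up to 10, and the 5 most abundant of longer lists; the values of some listed genes are not reported here. Exon lengths and coordinates came from a GRCm38 annotation by symbol, which held 97.8% of the symbols, and none were converted from mm9. No other gene's annotated exons overlapped those of the 9 genes. Python 3.11.15, pandas 2.3.3 and matplotlib 3.10.9 were used for tables and plots.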

Additional observations from a re-analysis of the deposited data

How the results depend on the processing

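*Rsad2* was lower in all 12 alternative fits, with log2 fold changes from -1.29 to -1.06 and adjusted p from 0.0277 to 0.148, and was called at 0.1 in 11 of them. The number of the 9 genes called lower was 0 at an adjusted p under 0.05 and ranged from 0 to 1 when a library was left out, and the number called higher ranged from 0 to 1. The same omissions gave 197 to 984 calls over all genes, 2 to 5 pathway genes called lower, a median log2 fold change of -0.51 to 0.41 for the 9 genes and of -0.24 to -0.06 for the pathway lists, and of -1.19 to -0.70 for the macrophage markers. Over all genes, DESeq2 called 508, no filter on low counts 425 and the threshold of 0.05 called 122, which left 1 pathway gene. The causes were not tested. *Ifit1* turned to -0.01 with DESeq2, -0.06 with the replicate block, -0.04 with length offsets and the replicate block and -0.01 with upper quartile factors, and *Irf7* to 0.02 with length offsets. *Ifit1* gave no value with the minimum of 10 counts in every library, which it did not reach. Without 1 library, values ranged from -0.84 to 0.52 in *Ifit1*, from -0.72 to 0.59 in *Ifit3*, from -0.29 to 0.52 in *Isg15*, from -0.36 to 0.25 in *Irf7* and from -0.62 to 0.41 in *Bst2*. Embryos that share a replicate number share only that number (correlation of their deviations -0.004 over 11180 genes), and with the replicate block *Rsad2* had -1.17 at an adjusted p of 0.0876, with 280 calls over all genes. Where 1 library is left out, the lone embryo of a group is assumed to vary like the other group. Counts of 8 to 42 fragments limit *Ifit1*, *Ifit3* and *Isg15*. Each embryo gave 1 library, so p-values weigh a difference against the spread between libraries, which was estimated in part across genes.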

Other observations

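The genes whose profile over the 4 embryos was most like the mean profile of the 9 genes were *Hps6*, *Rpl36*, *Ankrd29*, *Ybx2* and *9930012K11Rik*, among 13320 tested genes outside all lists with a mean of at least 1 CPM. The Euclidean distance between profiles, over 4 libraries, was 0.0794 for *Hps6* and 0.0915 for *9930012K11Rik*, and 7 genes lay within 0.1. *Rpl36*, which encodes a ribosomal protein, was at 184 and 135 CPM in GCE/+ and at 120 and 182 CPM in GCE/GCE cells, so it shared the high values of GCE/+ replicate 1 and GCE/GCE replicate 2. The likeness is a description over 4 libraries.

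Among markers of other cell types, the summed erythroid level was 61.6 and 22.3 CPM in GCE/+ and 43.4 and 43.2 CPM in GCE/GCE cells. The 8 myogenic markers summed to 156 and 175 against 200 and 170 CPM, and the 6 epithelial markers to 13.9 and 16.5 against 14.1 and 14.1 CPM. Markers of neutrophils and mast cells summed to 11.9 and 4.49 against 7.79 and 6.18 CPM, and those of lymphoid and plasmacytoid dendritic cells, the latter a main source of type I interferon, to 2.51 and 2.47 against 1.96 and 1.78 CPM. None of these 4 lists or the erythroid list held a gene called by edgeR or DESeq2 at an adjusted p under 0.1. At an unadjusted edgeR p under 0.05, 2 myogenic markers were higher, 1 epithelial marker was lower and 1 higher, 1 lymphoid or plasmacytoid dendritic marker was lower, and 0 markers passed in the other lists. Over all genes tested, 769 of 15645 were lower and 867 were higher at that unadjusted p.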
